A study of Mus musculus with 11 samples.

Results

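The E2F and retinoblastoma family genes were followed in light zone (LZ) germinal center (GC) B cells and memory B cells (MBCs) of mouse spleen. Members were found by gene symbol in the table of expression values, which gave all 10 genes asked for (E2f1, E2f2, E2f3, E2f4, E2f5, E2f7, E2f8, Rb1, Rbl1 and Rbl2) of 48795 genes listed. RNA of sorted cells was sequenced in 11 libraries, 1 per mouse and cell type. Myc_WT LZ (4 mice) and Myc_WT MBC (3 of the same mice, numbers 1, 3 and 4) came from mice with wild-type Myc, and Myc_VD LZ (4 other mice) from mice whose endogenous Myc locus encodes the V394D change, which stops MYC binding MIZ1 (ZBTB17) but leaves its partner MAX. All were female mice, 8 to 12 weeks old, on a C57BL/6 background, killed 10 days after an intravenous injection of sheep red blood cells. LZ cells were sorted as B220+, CD138neg, IgDneg, CD38neg, Fas+, CD86high and CXCR4low, and MBCs as B220+, CD138neg, IgDneg, CD38+ and CD273+. The mutation is encoded at the gene's own locus rather than switched on in 1 cell type, so it is not limited to GC B cells. The mouse names of all Myc_VD mice share a prefix that no Myc_WT mouse has. What the prefix stands for is not stated, and it cannot be told apart from genotype. Among Myc_WT mice, the number in the name of mouse 4 differs from that shared by mice 1 to 3, and its meaning is not stated either.

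E2F proteins bind promoters of genes for DNA replication and the cell cycle, and the retinoblastoma (pocket) proteins hold them in check. In a resting cell, RBL2 (p130) with E2F4 or E2F5, a DP partner and the MuvB core forms the repressive DREAM complex, while RB1 binds the activators E2F1, E2F2 and E2F3. Cyclin D and cyclin E kinases phosphorylate pocket proteins as the cell enters the cycle, which frees the activators. E2F7 and E2F8 bind DNA without a DP partner and repress E2F targets late in the cycle, and E2f1, E2f7, E2f8 and Rbl1 are E2F targets themselves. MYC is induced in LZ B cells selected to divide again, and MBCs are largely quiescent.

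Promoters are shown because E2F proteins act on their own family's promoters. The 4 printed are those of 3 members that were lower in MBC than in LZ libraries (E2f7, E2f8 and Rbl1) and of Rbl2, whose difference did not pass the test. RefSeq windows of mouse build GRCm38.p6 (250 bases before and 50 after a transcript start) were found for 7 of the 10 members, and E2f4, E2f5 and Rb1 had no entry. Each window was searched on both strands for the E2F letters TTCCCGC or TTGGCGC or TTGCCGC or TTCGCGC, and for TTTGAA, the cell cycle homology region (CHR) that MuvB complexes bind. The 250 bases before the start of E2f7 (chr10:110745189-110745438, plus strand), E2f8 (chr7:48881597-48881846, minus strand), Rbl1 (chr2:157204535-157204784, minus strand) and Rbl2 (chr8:91069807-91070056, plus strand) are printed 5′ to 3′, with these matches on either strand in capitals.
E2f7: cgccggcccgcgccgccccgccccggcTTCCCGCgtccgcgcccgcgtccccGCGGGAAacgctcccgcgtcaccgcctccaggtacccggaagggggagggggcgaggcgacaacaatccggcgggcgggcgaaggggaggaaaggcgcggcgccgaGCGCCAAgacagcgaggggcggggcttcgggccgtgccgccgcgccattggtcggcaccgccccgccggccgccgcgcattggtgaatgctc
E2f8: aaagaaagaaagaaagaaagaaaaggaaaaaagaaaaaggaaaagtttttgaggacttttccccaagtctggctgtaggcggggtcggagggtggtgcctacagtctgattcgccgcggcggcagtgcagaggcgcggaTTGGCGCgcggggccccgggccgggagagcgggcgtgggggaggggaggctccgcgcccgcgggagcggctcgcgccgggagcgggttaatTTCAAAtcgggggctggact
Rbl1: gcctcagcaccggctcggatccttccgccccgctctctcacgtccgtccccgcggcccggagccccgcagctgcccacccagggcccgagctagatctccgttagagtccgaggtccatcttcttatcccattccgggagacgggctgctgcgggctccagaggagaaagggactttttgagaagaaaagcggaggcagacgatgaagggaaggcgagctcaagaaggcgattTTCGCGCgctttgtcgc
Rbl2: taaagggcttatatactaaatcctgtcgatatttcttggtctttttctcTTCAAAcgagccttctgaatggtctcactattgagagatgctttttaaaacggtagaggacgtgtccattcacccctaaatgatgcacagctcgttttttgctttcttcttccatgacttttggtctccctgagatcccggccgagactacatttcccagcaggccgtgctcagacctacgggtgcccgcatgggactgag
The E2f7 window holds 3 E2F matches, which start 223, 198 and 92 bases before the transcript start. That of E2f8 holds 1 E2F match, 111 bases before the start, and a CHR match 20 bases before it. Rbl1 has 1 E2F match, 17 bases before the start, which lies in the 8-letter form TTTCGCGC. Rbl2 has no E2F match and a CHR match 201 bases before the start. Of 32851 windows of all genes, 9.57% hold an E2F match and 17.9% a CHR match, so a match is a description of these letters and not a bound site. The first of the 2 windows of E2f2, whose values were higher in all MBC than in all LZ libraries, has 1 E2F match, 41 bases after the start, and 1 of the 2 windows of E2f3 has 2. The window listed for E2f1 has none; it lies inside the E2f1 gene as GENCODE M21 draws it (chr2:154559407-154569892), away from that gene's own start.

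Library values were deposited as TPM (transcript abundance corrected for length, with a library total of 1000000), which allow levels of different genes to be set side by side but keep no depth. Genes above 0 numbered 15460 to 19537 in Myc_WT LZ, 13169 to 16421 in Myc_VD LZ and 11527 to 16040 in Myc_WT MBC libraries. Of 6668 genes that averaged 10 TPM or more over the LZ samples, 421 were listed at 0 in the MBC library of mouse 3, 253 in that of mouse 1 and 57 in that of mouse 4, against 34 to 69 in each LZ library. A value of 0 is therefore given only as listed. Cd38 lay between 199.72 and 275.58 TPM in MBC and between 6.18 and 18.27 TPM in LZ libraries, and Pdcd1lg2 (CD273) between 28.65 and 78.92 against 2.23 and 5.32 TPM, as the sort asked for. Fas was 6.90 to 43.71 TPM in MBC and 41.90 to 96.68 TPM in LZ libraries, and Fas, Cd86 and Cxcr4 overlapped when all LZ libraries were taken. Against Myc_WT LZ alone, Fas (54.85 to 69.28 TPM) did not overlap. Nor did Cd86, at 162.89 to 196.67 TPM in MBC and 207.20 to 289.88 TPM in Myc_WT LZ, while Cxcr4 did. All 8 GC B cell markers were lower in MBC libraries and 6 passed the test. All 5 naive follicular B cell markers analysed (Ccr7 and Ighd among them) passed it as higher, with a summed level of 702.34 to 826.24 TPM against 217.97 to 237.96 TPM in Myc_WT LZ. Fcer2a (CD23) gave most of both sums, at 480.33 to 531.48 TPM in MBC and 185.29 to 212.90 TPM in Myc_WT LZ. Summed erythroid markers reached 6712.59 TPM in the MBC library of mouse 3, against 7.60 and 53.36 TPM in the other MBC libraries, 115.52 to 225.62 TPM in Myc_WT LZ and 71.87 to 409.62 TPM in Myc_VD LZ libraries. Summed myeloid markers were 38.55 to 179.76 TPM in MBC and 7.69 to 18.69 TPM in LZ libraries, T cell markers 0.00 to 55.62 TPM in MBC and 27.36 to 68.95 TPM in LZ, and plasma cell markers 193.12 to 402.30 TPM in MBC, 229.37 to 381.40 TPM in Myc_WT LZ and 133.80 to 220.65 TPM in Myc_VD LZ. Of the T cell sum, Lck alone was 24.12 to 66.53 TPM in LZ libraries, where no other T cell marker was above 6.48 TPM. In the MBC library of mouse 4, Trac was 17.65 TPM and no T cell marker was listed at 0. The part of such other cells in the values below was not tested.

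**Figure D1:**
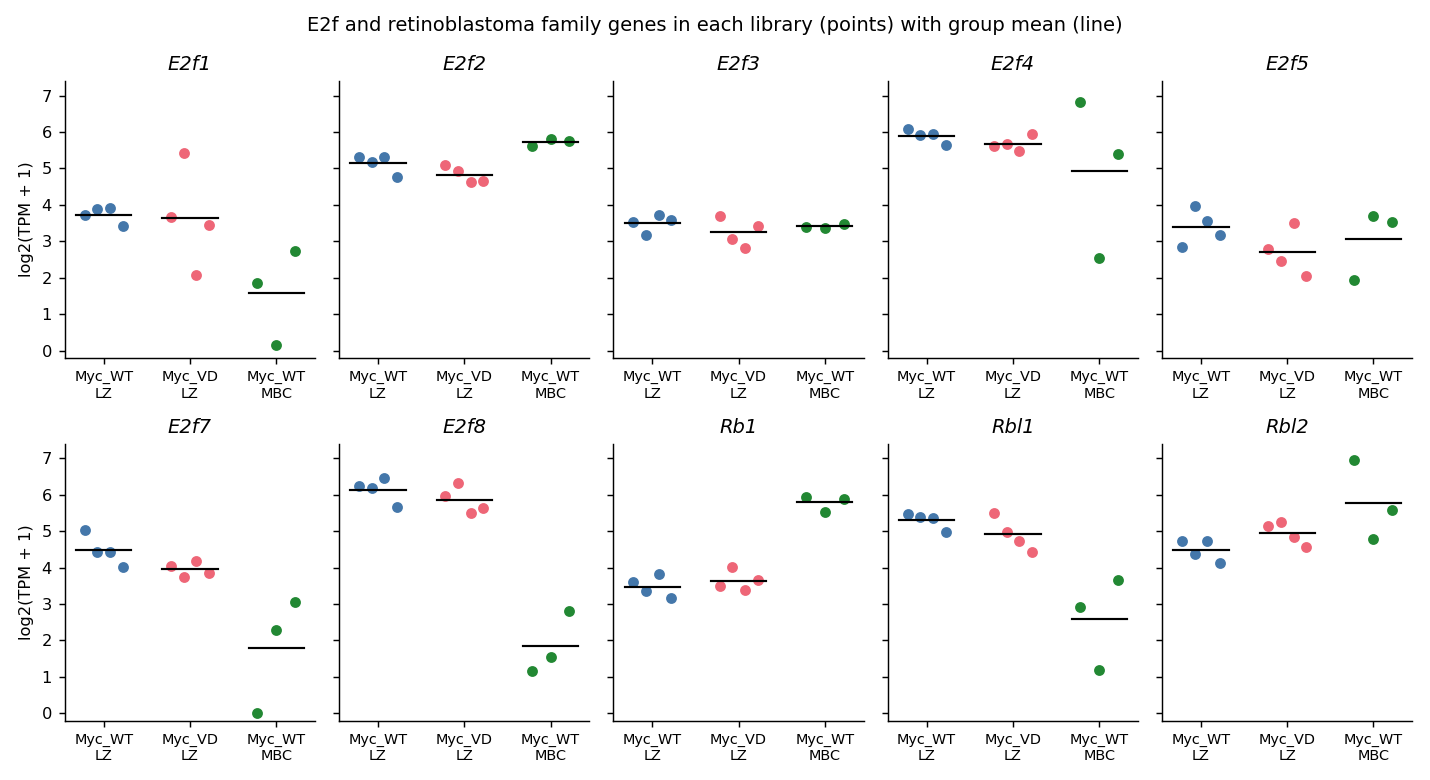
Level of each of the 10 genes as log2(TPM + 1) on the vertical axis, 1 point per library (Myc_WT LZ blue, Myc_VD LZ red, Myc_WT MBC green, ordered by mouse number) and a line at the group mean. E2f8 and Rbl1 are lower and Rb1 higher in all 3 MBC libraries than in all 8 LZ libraries, while points of both LZ groups overlap for every gene.

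MBCs were compared with LZ B cells of Myc_WT mice to ask how the family differs between a dividing GC population and the memory population from the same spleens. E2f8, E2f7 and Rbl1 fell in MBCs, with differences of -4.30, -2.70 and -2.70 on the log2(TPM + 1) scale, and Rb1 rose by 2.31 (limma, Benjamini-Hochberg over 13245 genes tested). E2f2, E2f3, E2f4, E2f5, E2f1 and Rbl2 did not pass. In all, 3 of 10 members were called lower and 1 higher, where 5.04% and 4.17% of all genes tested were, and the members' median difference was -0.65 against -0.14 over all genes (-0.35, with 4 higher and 6 lower, without the MBC library of mouse 3). Ranges of the groups did not overlap for 4 members that were lower (E2f1, E2f7, E2f8, Rbl1) and 3 that were higher (E2f2, Rb1, Rbl2), beside 14.4% and 11.8% of all genes. The smallest p that the exact two-sided permutation test can reach with 3 against 4 libraries is 0.0286. Groups without overlap always reach it, so for these 7 members it adds nothing to the ranges. MBC and LZ libraries share 3 mice, and a fit with the mouse as a replicate block called only E2f8 (limma adjusted p = 0.0175), against 0.0729 for Rb1, 0.1003 for Rbl1 and 0.177 for E2f7. That fit also lacks the LZ library of mouse 2, which has no MBC partner, and without this library but with no block E2f8 and Rb1 were called and the limma adjusted p was 0.0301 for Rb1, 0.0819 for Rbl1 and 0.131 for E2f7. In these bulk libraries, fewer cells that express a gene and less RNA of it per cell cannot be told apart.

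E2f8, an atypical repressor, gave the largest difference of the 10 genes. E2f8 was 74.33, 71.30, 86.28 and 49.71 TPM in the LZ libraries of Myc_WT mice 1 to 4 and 1.22, 1.93 and 5.96 TPM in MBCs of mice 1, 3 and 4. The lowest LZ library was thus far above the highest MBC library, and in Myc_WT LZ cells E2f8 had the highest mean of the 10 genes (70.4 ± 15.2 TPM, SD, n = 4). The difference was -4.30 ± 0.46 (SE; limma adjusted p = 0.00207), and within the mice it ran from -5.08 to -2.87. It stayed called without any 1 of the 7 libraries (limma adjusted p of 0.0011 to 0.0148). E2f7, its partner in repressing E2F targets, was 31.90, 20.62, 20.59 and 15.31 TPM in LZ and was listed at 0.00, and then 3.91 and 7.28 TPM, in MBCs. E2f7 too showed no overlap, but its MBC values spread more widely, so that the difference of -2.70 ± 0.71 just passed (limma adjusted p = 0.0484). Leaving out any Myc_WT LZ library (mouse 1, 2, 3 or 4) ended that call (limma adjusted p of 0.103 to 0.138), as did a pseudocount of 0.1 (0.112), no filter on low values (0.104), removal of ribosomal RNA genes (0.0548) and a fit without a trend (0.0579).

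Among the activators, E2f1, whose protein drives S-phase genes, was 12.13, 13.92, 13.99 and 9.64 TPM in LZ and 2.60, 0.11 and 5.63 TPM in MBCs. All 3 MBC libraries lay below the LZ libraries, with a difference of -2.16 ± 0.64 (SE), which missed the threshold (limma adjusted p = 0.0673) and passed without the MBC library of mouse 4 (limma adjusted p = 0.0168, difference -2.73) and under median-ratio scaling (limma adjusted p = 0.0488). E2f2 went the other way: 38.51, 34.96, 38.76 and 26.12 TPM in LZ and 48.05, 54.64 and 53.41 TPM in MBCs. The difference of 0.59 ± 0.27 missed the threshold (limma adjusted p = 0.204), with E2f2 higher in MBCs in 3 of 3 mice. E2f3 was 10.63, 8.04, 12.26 and 10.90 TPM in LZ and 9.58, 9.38 and 10.20 TPM in MBCs. Its MBC values fell within the LZ range, with a difference of -0.08 ± 0.38. As a share of the summed TPM of E2f1, E2f2 and E2f3, E2f2 made up 56.0 to 62.9% in Myc_WT LZ and 77.1 to 85.2% in MBC libraries.

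The members that lack a strong activation function, E2f4 and E2f5, gave no direction. E2f4 was 67.00, 59.64, 60.25 and 48.87 TPM in LZ and 112.56, 4.83 and 41.48 TPM in MBCs. The MBC libraries lay on both sides of the LZ libraries, and the fitted difference of -0.97 ± 0.83 turned to 0.22 without the MBC library of mouse 3, the one with the erythroid RNA. E2f5 was 6.17, 14.59, 10.77 and 8.02 TPM in LZ and 2.85, 11.97 and 10.62 TPM in MBCs, with a difference of -0.32 ± 0.56 that turned to 0.23 without the MBC library of mouse 1. For both genes the spread among MBC libraries was larger than the difference from LZ.

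Of the pocket protein genes, Rb1 rose, Rbl1 fell and Rbl2 did not pass. Rb1 was 11.07, 9.16, 13.03 and 8.01 TPM in LZ and 60.66, 45.40 and 58.35 TPM in MBCs, 10.3 ± 2.2 against 54.8 ± 8.2 TPM (SD, n = 4 and 3). Every MBC library was above every LZ library, by 2.31 ± 0.33 on the log2(TPM + 1) scale (limma adjusted p = 0.00562), and the call held without any 1 library (limma adjusted p of 0.00409 to 0.0301). The 5 naive follicular markers were likewise higher in all 3 MBC libraries, 3.85 at the median of their log2 differences, and their part in the Rb1 difference was not tested. Rbl1 (p107), which dividing cells express, was 42.99, 41.05, 40.06 and 30.22 TPM in LZ and 6.51, 1.3 and 11.63 TPM in MBCs. It was lower in 3 of 3 mice, with a fitted difference of -2.70 ± 0.56 (limma adjusted p = 0.0226), and lost the call without any Myc_WT LZ library (mouse 1, 2, 3 or 4; limma adjusted p of 0.0612 to 0.0819) and with no filter on low values (0.0549). Rbl2 (p130), the pocket protein of resting cells, was 25.30, 19.59, 25.33 and 16.49 TPM in LZ and 122.42, 26.52 and 46.57 TPM in MBCs. All 3 MBC libraries were above the LZ range, that of mouse 3 by little, and the difference of 1.29 ± 0.49 missed the threshold (limma adjusted p = 0.134). Without the MBC library of mouse 3 it was 1.78 and passed (limma adjusted p = 0.0328), and without that of mouse 1, which held the highest value, it was 0.70 (limma adjusted p = 0.238).

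Shares within a library do not depend on how libraries are scaled, and are given as a description with no test, since they were formed after the values were seen. Of the summed TPM of Rb1, Rbl1 and Rbl2, Rbl1 made up 51.1 to 58.8% in Myc_WT LZ, 36.8 to 49.7% in Myc_VD LZ and 1.78 to 9.98% in MBC libraries. Rbl2 made up 28.1 to 32.3% in Myc_WT LZ, 38.7 to 44.8% in Myc_VD LZ and 36.2 to 64.6% in MBC libraries. The ratio of Rbl2 to Rbl1 was 0.477 to 0.632 in Myc_WT LZ, 0.779 to 1.22 in Myc_VD LZ and 4.004 to 20.4 in MBC libraries. So Rbl1 led among pocket genes in Myc_WT LZ libraries, Rbl1 and Rbl2 were near each other in Myc_VD LZ libraries, and the 3 groups did not overlap in this ratio. Rb1 made up 13.1 to 16.6% in Myc_WT LZ, 11.6 to 21.2% in Myc_VD LZ and 32 to 62.0% in MBC libraries, so that the LZ groups overlapped. Among the 7 E2f genes, E2f7 and E2f8 together made up 38.6 to 44.1% in Myc_WT LZ, 36.5 to 41.4% in Myc_VD LZ and 0.69 to 9.84% in MBC libraries. E2f4 and E2f5 (19.4 to 65.3% in MBC libraries) and E2f1, E2f2 and E2f3 (34.1 to 73.9%) varied widely among MBC libraries.

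**Figure D2:**
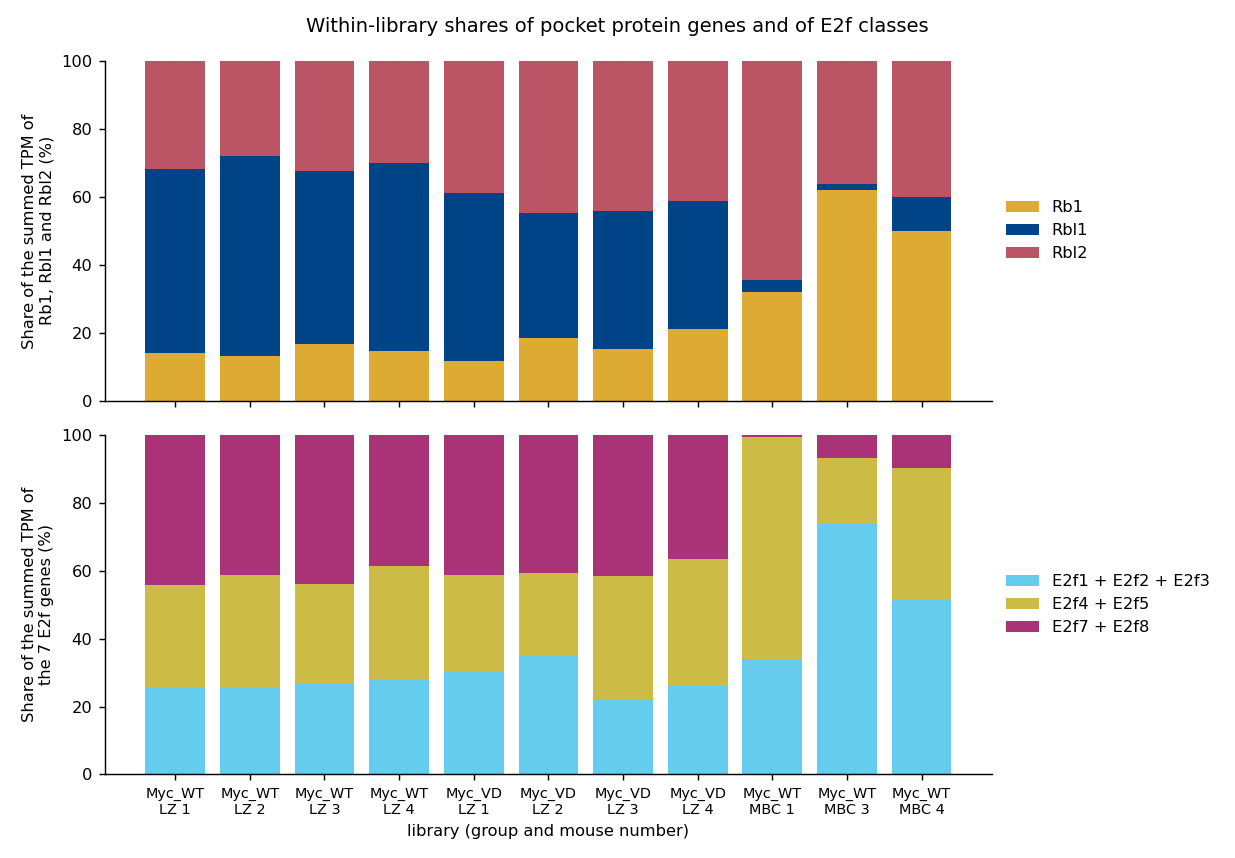
Stacked bars of the percent of summed TPM in each of the 11 libraries (horizontal axis), for Rb1, Rbl1 and Rbl2 (upper panel) and for 3 classes of the 7 E2f genes (lower panel). The Rbl1 share is 51.1 to 58.8% in Myc_WT LZ, 36.8 to 49.7% in Myc_VD LZ and at most 9.98% in MBC libraries, and the E2f7 and E2f8 share is at most 9.84% in MBC libraries.

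Genes that act with the family were read from lists of DP partners, MuvB and DREAM partners, RB kinases and their inhibitors, G1/S targets of E2F and mitotic genes. Tfdp1, the main DP partner that E2F1 to E2F5 need to bind DNA, fell from a mean of 116.2 TPM in Myc_WT LZ to 33.1 TPM in MBCs (-1.90 ± 0.43, limma adjusted p = 0.0294). Tfdp2 was 5.45 against 5.23 TPM and did not pass (limma adjusted p = 0.497). Of 8 MuvB and DREAM genes, 2 were called, both lower: Mybl2, which binds MuvB in S phase (difference -3.26 ± 0.65, limma adjusted p = 0.0193), and Foxm1, which binds it before mitosis (-2.67 ± 0.42, limma adjusted p = 0.00819). The other 6, the genes of the MuvB core among them, were not called, and the list's median was -0.49 (-0.81 and -0.29 without the MBC library of mouse 3 or of mouse 4).

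Of the RB kinase list, 15 of 17 genes passed the filter on low values and 4 were called in MBCs against LZ. Cdk4, the catalytic partner of D cyclins, fell by 1.88 ± 0.37 (limma adjusted p = 0.0174), and Ccnd3, the D cyclin of GC B cells, fell by 1.61 ± 0.40 (limma adjusted p = 0.0416). Ccnd2 rose by 2.13 ± 0.44 (limma adjusted p = 0.0223), as did Cdkn1b (p27), an inhibitor of cyclin-dependent kinases, by 2.13 ± 0.55 (limma adjusted p = 0.0458). The D cyclin genes Ccnd2 and Ccnd3 therefore went opposite ways, and the median of the list was -1.56. These calls and those of Tfdp1, Mybl2 and Foxm1 come from the fit without the mouse as a block. Adjusted p of these genes with the block or with a library left out are not given here.

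All 40 G1/S target genes of E2F had a lower mean log2(TPM + 1) in MBCs than in LZ (39 of 40 without the MBC library of mouse 1), and 26 were called lower and none higher, with a median of -2.08. The largest differences among them were those of Tyms, which makes thymidylate (-5.26 ± 0.90, limma adjusted p = 0.0110), Gins1 of the replicative helicase (-4.52 ± 0.45, limma adjusted p = 0.00159) and Mcm10, which activates that helicase (-4.14 ± 0.59, limma adjusted p = 0.00562). All 20 mitotic genes were lower, 16 of them called, with a median of -2.15, led by Bub1b (-4.03 ± 0.86, limma adjusted p = 0.0244), Birc5 (-3.89 ± 0.85, limma adjusted p = 0.0261) and Cdc20 (-3.85 ± 0.79, limma adjusted p = 0.0215). These counts were 9 and 5 with the mouse as a replicate block and without the LZ library of mouse 2, 9 and 3 without that library alone, and between 9 and 16 and between 3 and 11 without 1 Myc_WT LZ library, while all 40 and all 20 genes kept their direction under both other scalings. Summed TPM of the G1/S list was 2626.35 to 4043.80 in Myc_WT LZ, 1775.89 to 3208.64 in Myc_VD LZ and 899.37 to 1201.12 in MBC libraries. Among G1/S genes with a promoter window, 23 of 31 held an E2F match, beside 10.9% of all 27025 genes, and 12 of 17 mitotic genes held a CHR match, beside 20.2%. These are properties of the lists and not of the samples.

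**Figure D3:**
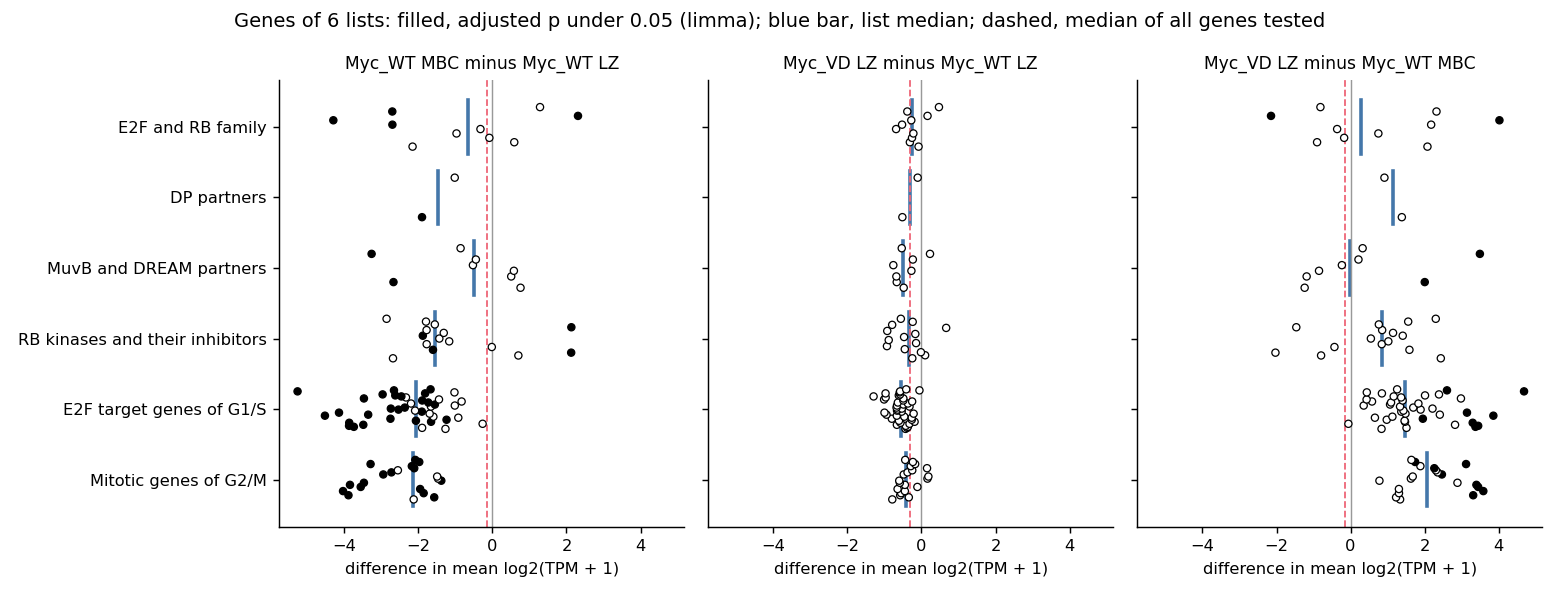
Difference in mean log2(TPM + 1) (horizontal axis) for each gene of 6 lists in the 3 comparisons: filled points passed limma at an adjusted p under 0.05, blue bars are list medians and the dashed line is the median of all genes tested. In MBC minus LZ all G1/S and mitotic genes lie left of 0 with medians of -2.08 and -2.15, and in Myc_VD LZ minus Myc_WT LZ no gene of these lists is filled.

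Myc_VD and Myc_WT LZ B cells were compared to ask what loss of MYC binding to MIZ1 changes in cells of the same sort. None of the 10 members was called, none had an unadjusted p under 0.05 (limma) and none had groups that did not overlap. Of all 12869 genes tested, 0.00777% were called higher and 0.0389% lower, 1.24% and 15.7% had an unadjusted p under 0.05, and 0.816% and 9.16% had no overlap, higher and lower in turn. The median difference over all genes was -0.31, and that of the members was -0.27 (-0.15 without Myc_VD LZ library 3). Under median-ratio scaling the median over all genes was -0.01 and members went from 8 lower and 2 higher to 3 lower and 7 higher, so their directions depend on the scaling. Ribosomal RNA genes took 35.7 to 44.5% of TPM in Myc_WT LZ and 44.1 to 61.3% in Myc_VD LZ libraries.

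Rbl2 and Rb1 were the 2 members with a higher mean log2(TPM + 1) in Myc_VD LZ. Rbl2 was 34.56, 37.00, 27.81 and 22.69 TPM in the Myc_VD LZ libraries 1 to 4, beside 16.49 to 25.33 TPM in Myc_WT LZ, so that 3 of 4 Myc_VD libraries were above all Myc_WT libraries. The difference was 0.47 ± 0.26 (SE; limma adjusted p = 0.374; interval of 2 SE from -0.04 to 0.98), and 0.80 under median-ratio scaling. Rb1 was 10.36, 15.12, 9.52 and 11.65 TPM, within and above the Myc_WT range, with a difference of 0.16 ± 0.28. Rbl1 was 44.34, 30.38, 25.56 and 20.69 TPM, where library 1 was above and libraries 3 and 4 below all Myc_WT libraries (-0.38 ± 0.27, limma adjusted p = 0.489). Values of all 3 pocket genes thus overlapped between genotypes.

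E2f1 was 11.74, 42.12, 3.20 and 9.86 TPM in Myc_VD LZ libraries, a range that holds all of the Myc_WT values of 9.64 to 13.99 TPM. Library 2 held the highest and library 3 the lowest LZ value, and the difference of -0.08 ± 0.56 turned to 0.45 without library 3. E2f2 was 33.08, 29.20, 23.53 and 24.40 TPM and E2f3 11.99, 7.31, 6.04 and 9.74 TPM. Their differences were -0.31 ± 0.23 and -0.26 ± 0.30, and both were slightly above 0 under median-ratio scaling (0.02 and 0.05). E2f4 was 47.81, 50.27, 43.62 and 60.51 TPM and E2f5 5.89, 4.49, 10.37 and 3.12 TPM, and neither passed (limma adjusted p = 0.609 and 0.397). E2f7 was 15.47, 12.49, 17.18 and 13.49 TPM, of which 2 were below the lowest Myc_WT library, 15.31 TPM. That gene had the lowest exact permutation p of the 10 (p = 0.0857, two-sided, n = 4 and 4), with a difference of -0.52 ± 0.28. E2f8 was 61.99, 78.95, 44.11 and 48.42 TPM beside 49.71 to 86.28 TPM in Myc_WT LZ, and the interval of 2 SE of its difference, -0.78 to 0.23, ends above its difference in MBCs.

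**Figure D4:**
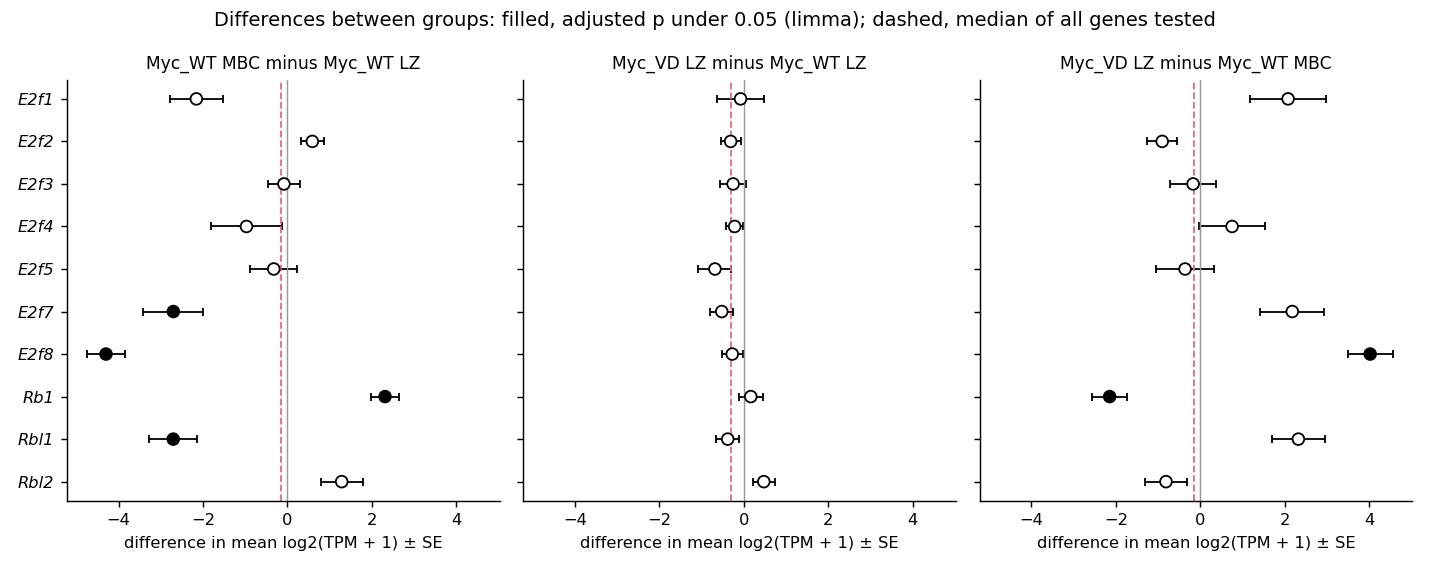
Difference in mean log2(TPM + 1) with its SE (horizontal axis) for each gene (vertical axis) in the 3 comparisons: filled points passed limma at an adjusted p under 0.05 and the dashed line is the median of all genes tested (-0.14, -0.31 and -0.16). E2f7, E2f8, Rbl1 and Rb1 are filled in MBC minus LZ, none in Myc_VD minus Myc_WT LZ, and E2f8 and Rb1 in Myc_VD LZ minus MBC.

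None of the genes of the 5 partner and target lists was called between Myc_VD and Myc_WT LZ libraries (limma). Without Myc_VD LZ library 1, 4 G1/S genes were called lower, in a fit that called 12 of all genes higher and 242 lower in place of 1 and 5. All 40 G1/S genes had a lower mean log2(TPM + 1) in Myc_VD LZ, with a median of -0.55 beside -0.31 over all genes. Of them 14 had an unadjusted p under 0.05 (limma) and 4 had no overlap. Of all genes tested, 15.7% and 9.16% were lower in these ways. Under median-ratio scaling 33 of 40 were lower with a median of -0.22, and 34 of 40 with ribosomal RNA genes removed. The mitotic genes had a median of -0.41, 17 of 20 lower, which became 12 of 20 under median-ratio scaling. Without Myc_WT LZ library 1, 3 or 4 this median was -0.25, -0.25 and -0.64, with 16, 15 and 20 of 20 lower. Of 14 genes tested in the RB kinase list 12 were lower, and 7 of 14 under median-ratio scaling. In that list 1 gene was higher and 2 were lower with no overlap, beside 0.816% and 9.16% of all genes. The higher was Cdkn1b, at 5.34, 18.63, 5.33 and 5.87 TPM in Myc_VD LZ and 3.92 to 4.78 TPM in Myc_WT LZ. Its difference was 0.67 ± 0.41 (limma adjusted p = 0.430). The lower were Ccne2 (6.17 to 13.38 against 13.83 to 27.95 TPM) and Cdk2 (3.60 to 14.95 against 16.91 to 22.37 TPM). Tfdp1 had means of 81.1 and 116.2 TPM in Myc_VD and Myc_WT LZ (-0.52 ± 0.26, limma adjusted p = 0.349), Foxm1 of 42.9 and 71.7 TPM (-0.67 ± 0.34, limma adjusted p = 0.347), Mybl2 of 31.9 and 24.7 TPM (0.23 ± 0.39) and Tfdp2 of 5.94 and 5.45 TPM. Of 6 erythroid markers, 3 were higher in Myc_VD LZ at an unadjusted p under 0.05. Summed plasma cell markers did not overlap between the genotypes, and all 4 tested had a lower mean log2(TPM + 1) in Myc_VD LZ, 1 of them at an unadjusted p under 0.05 (limma). The part of these cells in the G1/S values was not tested.

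Myc_VD LZ libraries were also set against MBC libraries, a comparison in which genotype and cell type differ together and which shares libraries with both others. E2f8 was higher in Myc_VD LZ by 4.02 ± 0.54 (limma adjusted p = 0.0025) and Rb1 was lower (-2.15 ± 0.42, limma adjusted p = 0.0175), in 4 of 4 libraries each. These were 1 member called higher and 1 lower, where 1.36% and 2.52% of 13131 genes were. Groups did not overlap for 3 members that were higher (E2f7, E2f8, Rbl1) and 2 that were lower (E2f2, Rb1), beside 5.99% and 12.5% of all genes. Rbl1 missed the threshold (2.32 ± 0.64, limma adjusted p = 0.0716) and passed under median-ratio scaling (limma adjusted p = 0.0287), with ribosomal RNA genes removed (limma adjusted p = 0.0394), without the MBC library of mouse 4 (limma adjusted p = 0.0355) and with all 3 groups in 1 fit (limma adjusted p = 0.0106). E2f7 (2.18 ± 0.76, limma adjusted p = 0.142), E2f1 (2.08 ± 0.90, limma adjusted p = 0.236) and E2f2 (-0.90 ± 0.36, limma adjusted p = 0.200) did not pass, though E2f7 did with all 3 groups in 1 fit (limma adjusted p = 0.0332). Rbl2 differed by -0.81 ± 0.51, E2f5 by -0.36, E2f3 by -0.17 and E2f4 by 0.75, all within overlapping ranges. The Rb1 call was lost without Myc_VD LZ library 3, Myc_VD LZ library 4 or the MBC library of mouse 1 (limma adjusted p = 0.0653, 0.0577 and 0.0504).

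In the same comparison 8 of 40 G1/S genes and 8 of 20 mitotic genes were called higher in Myc_VD LZ and none lower, with medians of 1.47 and 2.07. The largest differences among G1/S genes were those of Tyms (4.69 ± 0.87, limma adjusted p = 0.0142), Gins1 (3.86 ± 0.65, limma adjusted p = 0.00902) and Cdc6, which loads the helicase (3.45 ± 0.66, limma adjusted p = 0.0163). Bub1b (3.59), Ccnb2 (3.45) and Cdc20 (3.40) led the mitotic genes. Mybl2 was higher by 3.49 ± 0.75 (limma adjusted p = 0.0272) and Foxm1 by 2.00 ± 0.46 (limma adjusted p = 0.0377), while Tfdp1 (1.39 ± 0.46, limma adjusted p = 0.123) and Tfdp2 (0.92) did not pass, nor did any gene of the RB kinase list. Under median-ratio scaling 18 G1/S and 15 mitotic genes were called, with no filter on low values 1 and 1, and without any 1 of the 4 Myc_VD LZ libraries 1 to 4 and 1 to 3.

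On the per-length scale, the order of mean levels in Myc_WT LZ was E2f8 (70.4 TPM), E2f4 (58.9), Rbl1 (38.6), E2f2 (34.6), E2f7 (22.1), Rbl2 (21.7), E2f1 (12.4), E2f3 (10.5), Rb1 (10.3) and E2f5 (9.89). The ranges of neighbours in this order overlapped, except those of E2f4 and Rbl1 and those of Rbl2 and E2f1. In Myc_VD LZ the order began with E2f8 (58.4 TPM), E2f4 (50.6), Rbl2 (30.5) and Rbl1 (30.2), went on with E2f2 (27.6), E2f1 (16.7), E2f7 (14.7) and Rb1 (11.7) and ended with E2f3 (8.77) and E2f5 (5.97), and only E2f4 and Rbl2 among neighbours did not overlap. In MBCs the order of mean levels was Rbl2 (65.2 TPM), Rb1 (54.8), E2f4 (53.0), E2f2 (52.0), E2f3 (9.72), E2f5 (8.48), Rbl1 (6.48), E2f7 (3.73), E2f8 (3.04) and E2f1 (2.78). There E2f2 and E2f3 were the only neighbours that did not overlap. The 2 genes at the foot of the order in MBCs, E2f8 and E2f1, stood at ranks 1 and 7 in Myc_WT LZ.

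Genes whose levels tracked a member most closely over the 11 libraries were listed for 4 members among 9195 other genes, by Pearson's r of log2(TPM + 1). For E2f8 they were Dctpp1 (r = 0.992), which clears unwanted nucleotides, the pseudogene Gm13237 (0.990) and the replication gene Gins1 (0.989). For Rb1 they were Cnr2 (0.983), Notch2 and Cbfa2t3 (both 0.982), and Cnr2 and Notch2 code for receptors of B cells. For Rbl2 they were Chd9 (0.975), the histone methyltransferase gene Ezh1 (0.963) and Sfswap (0.953), and for E2f1 the sterol synthesis gene Lss (0.975), Erlec1 (0.964) and Cox10 (0.964). The points share libraries and their 3 groups, so that any gene that separates MBC from LZ libraries ranks high for E2f8 and Rb1, and r is given as a description.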

How the data were processed

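RNA of sorted LZ B cells and MBCs was sequenced, 1 library per mouse and cell type. The authors aligned reads with STAR (2.5.2a) to mouse GRCm38 with Ensembl transcripts and quantified them by strand with RSEM (1.3.0). The values they deposited are TPM with 2 decimals, so depth is unknown and a 0 can be a failed estimate. Members and lists were chosen with earlier results of these data known. Groups came from the labels. Each comparison used log2(TPM + 1) of its 2 groups, genes averaging 1 TPM or more over them, and limma (3.58.1 in R 4.3.3) with a trend, two-sided, with Benjamini-Hochberg adjustment over all genes and a threshold of 0.05. Differences are on that scale and understate changes of low genes. Exact permutation tests over libraries covered all 35 or 70 groupings. Replicates of a group were separate mice. A marker of the naive follicular list is not reported here and was left out of its counts and sums. All members are named. List genes are named if called (the 3 largest differences in each direction where over 6 were), and Tfdp1, Tfdp2, Mybl2 and Foxm1 always. Between LZ genotypes, genes of the RB kinase list with no overlap are named too. Shares and the ratio of Rbl2 to Rbl1 were chosen after values were seen. MBC and LZ libraries of mice 1, 3 and 4 pair by mouse name (correlations of deviations 0.0052, 0.0114 and -0.047). Alternatives were a pseudocount of 0.1, other filters (none, at least 5 TPM), median-ratio scaling, removal of 356 ribosomal RNA genes, all 3 groups in 1 fit, no trend, the mouse as a block (which leaves out the unpaired LZ library of mouse 2) and each library left out. Promoter windows are from RefSeq and gene positions from GENCODE M21, both on GRCm38.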

Additional observations from a re-analysis of the deposited data

How the results depend on the processing

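Between Myc_VD LZ and Myc_WT LZ, 0 members were called by limma under every alternative run, and 0 had an unadjusted p under 0.05 in the fit reported. For MBC versus LZ, 4 members were called (E2f7, E2f8, Rb1, Rbl1), 2 with no filter on low values (1 of them lower, E2f8), and 1 with the mouse as a replicate block (0 higher and 1 lower), when 130 genes were called higher and 118 lower in place of 552 and 667. The block also leaves out the unpaired LZ library of mouse 2, without which, and with no block, 2 members were called and 205 genes were higher and 137 lower. Without 1 library, 2 to 5 were called, 1 to 2 higher and 1 to 4 lower. For Myc_VD LZ versus MBC, 2 were called, and 4 with all 3 groups in 1 fit (3 higher). With median-ratio scaling or ribosomal RNA genes removed 2 were higher in place of 1, and without 1 library 1 to 3 were called, 1 to 2 higher and 0 to 1 lower. Rescaling moved the median over all genes from -0.31 to -0.01 between LZ genotypes and from -0.16 to 0.11 for Myc_VD LZ versus MBC (0.22 with ribosomal RNA genes removed), where calls went from 178 higher and 331 lower to 302 and 230 (304 and 191), and from -0.14 to -0.28 with ribosomal RNA genes removed for MBC versus LZ. With all 3 groups in 1 fit 555 genes were higher and 1023 lower, and with no filter 52 and 150 (329 and 279 for MBC versus LZ, where leaving out 1 Myc_WT LZ library gave 205 to 254 higher and 137 to 265 lower, and leaving out the MBC library of mouse 1, 3 or 4 gave 571, 901 and 924 higher and 581, 784 and 1830 lower). For Myc_VD LZ versus MBC, leaving out 1 library gave 62 to 396 higher and 141 to 335 lower, and between LZ genotypes 0 to 12 higher and 0 to 242 lower, the highest without Myc_VD LZ library 1. G1/S genes called lower in MBCs went from 26 to 14 with no filter and 9 with the mouse as a block (9 without LZ mouse 2 alone), and mitotic genes from 16 to 6 and 5 (3). For Myc_VD LZ versus MBC, 8 and 8 became 19 and 17 with all 3 groups in 1 fit, 16 and 15 with ribosomal RNA genes removed, 4 and 3 with a pseudocount of 0.1, 5 and 1 without a trend, and 1 to 13 and 1 to 10 without 1 library.

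Differences that changed sign were all of genes not called. Between LZ genotypes these were, under median-ratio scaling, E2f1 (0.24), E2f2 (0.0207), E2f3 (0.0545), E2f4 (0.12) and E2f8 (0.0649), with ribosomal RNA genes removed, E2f1 (0.19), E2f3 (0.0271), E2f4 (0.09) and E2f8 (0.033), and without 1 library E2f1 (-0.67 to 0.45). For MBC versus LZ without 1 library, E2f4 ran from -1.92 to 0.22 and E2f5 from -0.64 to 0.23. For Myc_VD LZ versus MBC, E2f3 was 0.10 under median-ratio scaling and 0.19 with ribosomal RNA genes removed, and E2f4 ran from -0.44 to 1.70 without 1 library. The cause was not tested. Of 440 values of members under alternatives, 398 kept direction and side of the threshold. TPM keep no depth, which limits values near 0 such as E2f7 in MBCs.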
